A study of Capra hircus with 10 samples.

Results

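The mitochondrial ribosomal protein genes of the goat were described in whole ovaries of the luteal and follicular phases of the estrous cycle. They were taken as every protein-coding gene whose symbol begins with MRPL or MRPS followed by a digit, and the FPKM of all transcripts of a symbol was summed. FPKM counts the sequenced fragments of a transcript scaled for transcript length and for the total mapped in the library. The rule found 77 genes of 20587 in the table, 49 with an MRPL symbol and 28 with an MRPS symbol.

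The mitochondrial ribosome sits in the mitochondrial matrix and translates the few mRNAs that mitochondrial DNA encodes, all of them for subunits of the respiratory chain and ATP synthase (oxidative phosphorylation, OXPHOS). Its ribosomal RNA comes from mitochondrial DNA, but its proteins are encoded in the nucleus and imported. The large subunit joins amino acids and releases the peptide through an exit tunnel, and the small subunit decodes the mRNA. Some of the proteins descend from proteins of the bacterial ribosome and others exist only in mitochondria. In the corpus luteum, which forms after ovulation, mitochondria also house the enzyme that starts the synthesis of progesterone from cholesterol.

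Ovaries of Anhui white goats were collected from a slaughterhouse, 5 from the luteal and 5 from the follicular phase, and each gave 1 library of RNA depleted of ribosomal RNA, strand-specific and paired-end. The labels give no age, treatment or individual genotype, and they do not say that each ovary came from a different goat. The p-values therefore measure the spread between these ovaries. Read counts were not used here, so depth per ovary is unknown and no counting interval can be given.

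Total FPKM lay between 452508 and 503276 in luteal phase ovaries and between 492324 and 540124 in follicular phase ovaries. The labels of the phases matched their markers: all 5 corpus luteum markers in the table (STAR, LHCGR, PTGFR, OXT and SCARB1) were higher in the luteal phase, with a summed FPKM of 3851 to 5602 against 63.6 to 76.6. The 3 endothelial markers were also higher (sum 98.3 to 130 against 47.8 to 56.2), as was LUM among 3 stromal markers (stromal sum 949 to 1814 against 981 to 1487). Higher in the follicular phase were 3 of 6 granulosa cell markers (sum 203 to 1054 against 92.0 to 639), the theca marker INSL3 (123 to 184 against 14.3 to 56.1) and 4 of 6 oocyte markers (sum 16.0 to 45.1 against 8.28 to 19.1). Neither of 2 leukocyte markers was called (sum 15.4 to 20.3 in the luteal and 11.3 to 30.2 in the follicular phase), and ALAS2, the only blood marker in the table, was at or near 0. The markers called above moved with the phase, and their part in the differences given here was not tested. In whole ovaries, fewer cells of a type and less RNA per cell cannot be told apart.

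All 77 genes passed the filter used for every gene, a minimum of 0.1 FPKM in 5 or more ovaries, and none was at 0 in any ovary. Single values ran from 5.99 to 272 FPKM. The median of the mean levels was 26.0 FPKM, against 6.81 over the 15359 genes tested, and 76 of the 77 lay above that median. MRPL33, a small large-subunit protein with a bacterial counterpart, had the highest mean over the 10 ovaries, 167 FPKM. MRPL17, also a large-subunit protein of bacterial descent, followed with 109 FPKM and the mitochondria-specific MRPL57 with 78.4 FPKM. The lowest mean levels were those of MRPS31 (6.75 FPKM), MRPL46 (8.90 FPKM) and MRPS2 (8.93 FPKM). Across the 5 ovaries of a phase these genes varied little, with a median coefficient of variation of 11.1% in the follicular and 10.6% in the luteal phase, against 16.1% and 14.5% over all genes tested. Because the members lay at higher levels than most tested genes and no genes of similar level were compared, a part of level in this was not tested.

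Most of the 77 genes differed little between the phases. Log2 fold changes (luteal minus follicular, on log2(FPKM + 0.1)) were tested with limma over all genes, and an adjusted p under 0.05 was counted as a call. Called were 18 of the 77 genes, or 23.4%, where 43.7% of all tested genes were called. Higher in the luteal phase were 5 (15.9% of all tested genes were called in this direction), and higher in the follicular phase were 13 (27.8% of all). Without follicular ovary 2, 9 were called higher in the luteal phase (16.3% of all tested genes in the same fit). The phases did not overlap for 9 of the 77 genes (11.7%), 3 higher in the luteal and 6 higher in the follicular phase, where this held for 28.4% of all tested genes.

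The changes were also small in size. The median log2 fold change was -0.05 (interquartile range -0.20 to 0.14), against -0.14 (-0.43 to 0.18) over all tested genes. A change of more than 0.5 on the log2 scale was reached by 4 of the 77 (5.19%), namely MRPL33, MRPS36, MRPS6 and MRPL9, and by 33.6% of all tested genes. Of the 59 genes that were not called, 52 had a 95% interval that lay within 0.5 log2 units on either side of 0. Among the rest, the bound farthest from 0 was 0.70, for MRPL17.

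**Figure D1:**
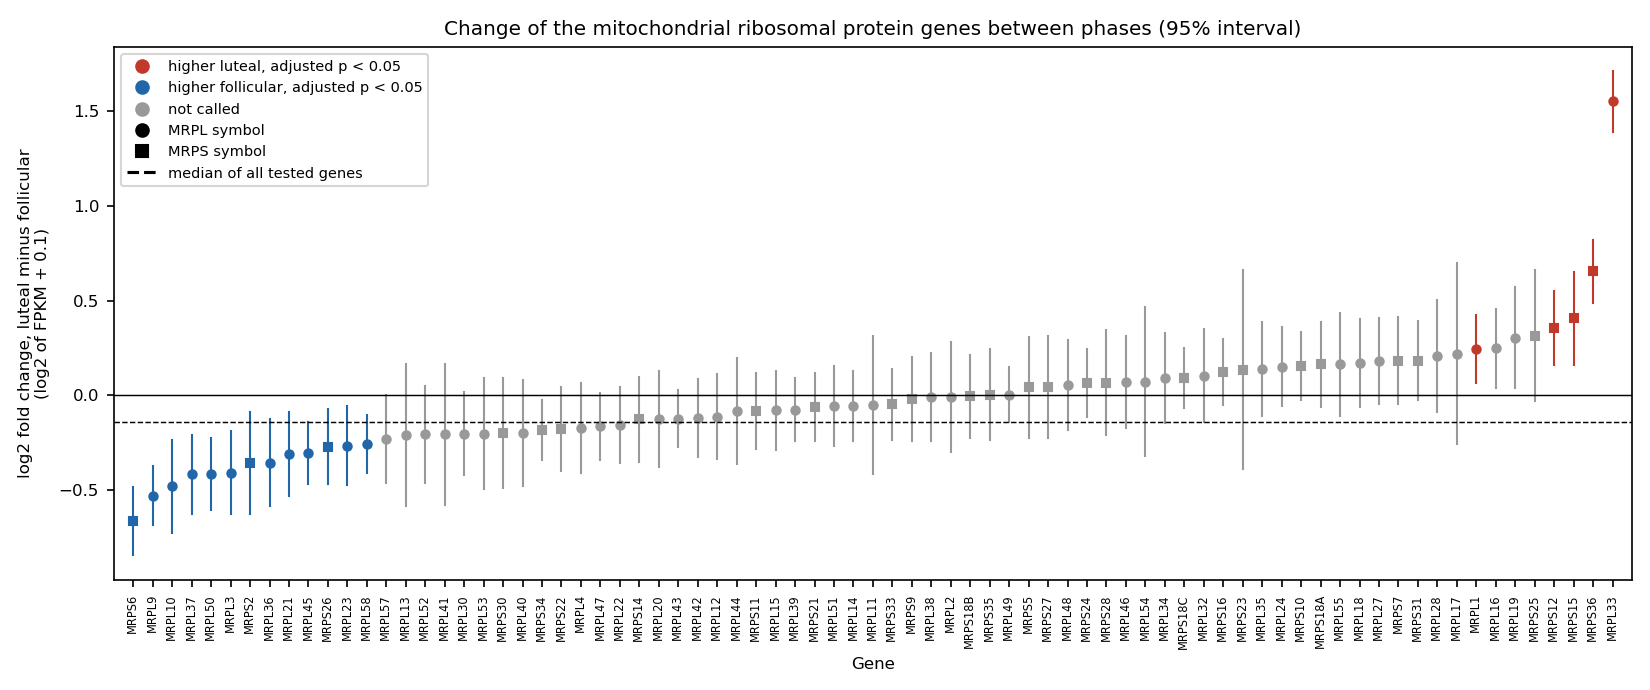
Log2 fold change (luteal minus follicular, on log2 of FPKM + 0.1) of each of the 77 genes in order of size, with limma's 95% interval (circles MRPL, squares MRPS). Most points lie close to 0 and to the median of all tested genes (dashed, -0.14), while MRPL33 stands alone at 1.55.

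The split between directions depended on how the ovaries were scaled. With FPKM as deposited, 5 genes were higher in the luteal and 13 in the follicular phase. When the ovaries were shifted to a common median, 13 were called (38.8% of all tested genes), 7 higher in the luteal (18.9% of all) and 6 in the follicular phase (19.9% of all). Quantile normalization gave 19 calls (41.9% of all), 6 higher in the luteal (17.5% of all) and 13 in the follicular phase (24.4% of all). On the TPM scale, where each ovary's values sum to the same total, 19 were called (35.8% of all), but 13 of them were higher in the luteal (18.8% of all) and 6 in the follicular phase (17.0% of all). The median log2 fold change was 0.04, -0.05 and 0.05 under these alternatives, so its sign turned with the scaling. Relative to the median of all tested genes it was 0.09 higher as deposited and 0.09, 0.04 and 0.10 higher under the alternatives. Called in the same direction under all 4 scalings were 11 genes: MRPL33, MRPS36, MRPS15, MRPS12 and MRPL1 in the luteal direction, and MRPS6, MRPL9, MRPL10, MRPL37, MRPL50 and MRPL3 in the follicular direction. Of these, 10 were also called whichever single ovary was left out, and the exception was MRPL1. The share of all tested genes that would meet either rule is not given here.

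**Figure D2:**
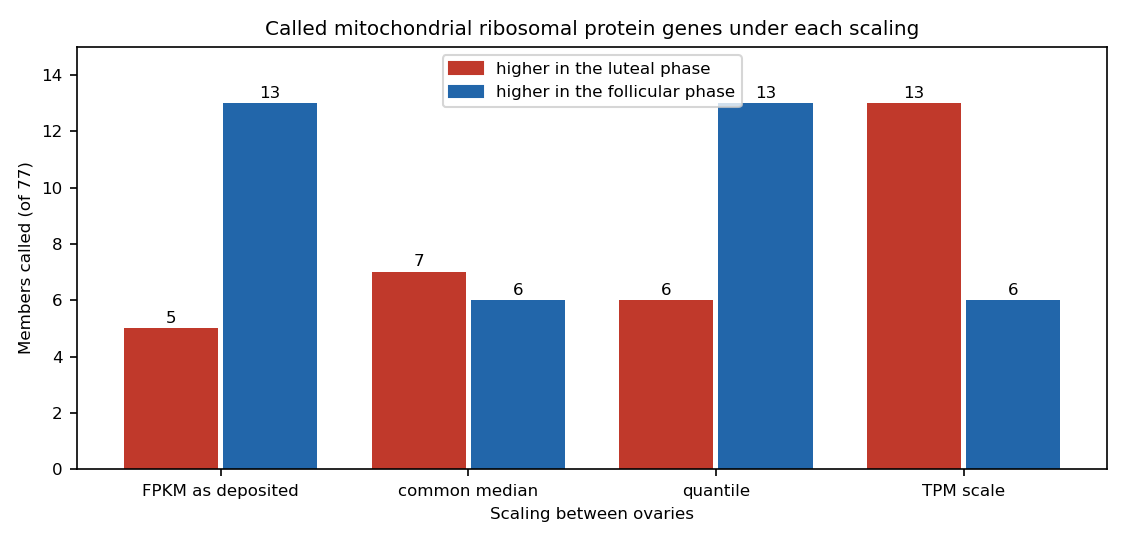
Number of the 77 genes called by limma (adjusted p under 0.05) as higher in luteal (red) or follicular (blue) ovaries, under 4 scalings of the ovaries. As deposited 5 and 13 were called, and on the TPM scale 13 and 6.

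MRPL33 was the member with the largest change. Its FPKM was 246, 258, 240.3, 272 and 228 in luteal phase ovaries 1 to 5, and 78.0, 94.9, 83.0, 85.2 and 82.9 in follicular phase ovaries 1 to 5. Every luteal phase ovary stood far above every follicular phase ovary. The means were 249 ± 16.7 and 84.8 ± 6.25 FPKM (SD, n = 5 each), a 2.93-fold difference (log2 1.55, SE 0.07, limma adjusted p = 8.48e-08). Among all 15359 tested genes this was the 542nd largest change in size. The next largest among the 77 was 0.66.

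MRPL33 alone made up 10.4% ± 0.49 of the summed FPKM of all 77 genes in the luteal phase (SD, n = 5) and 3.69% ± 0.24 of it in follicular phase ovaries. The sum itself was 2397 ± 182 FPKM in the luteal and 2304 ± 189 FPKM in the follicular phase, ranges that overlapped. Without MRPL33 it was 2148 ± 170 and 2219 ± 184 FPKM. The ratio of summed MRPL to summed MRPS FPKM ran from 2.10 to 2.33 in luteal phase ovaries and from 2.13 to 2.22 in follicular phase ovaries. With MRPL33 left out the ratio ran from 1.78 to 1.99 and from 2.01 to 2.09, and the phases did not overlap. With MRPS36 left out as well, the ratio ran from 1.90 to 2.11 and from 2.10 to 2.18, and the phases overlapped.

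MRPL33 has 2 transcripts in the deposited file, and both were higher in the luteal phase. The leading transcript, XM_005686871.3, had 199, 212, 192, 209 and 177 FPKM in luteal phase ovaries 1 to 5 and 68.5, 81.1, 69.3, 71.8 and 74.0 FPKM in follicular phase ovaries 1 to 5 (log2 fold change 1.44, limma adjusted p = 1.24e-06 over all transcripts). The minor transcript, XM_018055493.1, had 46.5, 45.7, 48.7, 63.2 and 51.0 FPKM against 9.51, 13.8, 13.7, 13.4 and 8.84 FPKM (log2 fold change 2.11, limma adjusted p = 1.80e-05). The phases did not overlap for either transcript, and the difference between their changes was not tested in this fit. Its share of MRPL33 ran from 17.7% to 23.2% over luteal ovaries and from 10.7% to 16.5% over follicular ovaries.

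For all 26 members with several transcripts, the share of the leading transcript was compared between the phases by a two-sided exact permutation test, a comparison added after the values had been seen. For MRPL33 the luteal share was 79.5% ± 2.31 and the follicular share 86.1% ± 2.44 (SD, n = 5 each), with an exact permutation p of 0.00794, the smallest that 5 against 5 allows. For MRPL38, a protein of the central protuberance, it was 83.3% ± 2.58 against 93.3% ± 4.87 (exact permutation p = 0.00794). After Benjamini-Hochberg adjustment over the 26 genes both had an adjusted p of 0.103. With the smallest p fixed by 5 against 5 ovaries, at least 5 genes at that p would have been needed to pass 0.05, so the adjusted test could not have called these 2 shares alone. FPKM of transcripts of 1 gene come from reads that the authors' software divided between them.

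**Figure D3:**
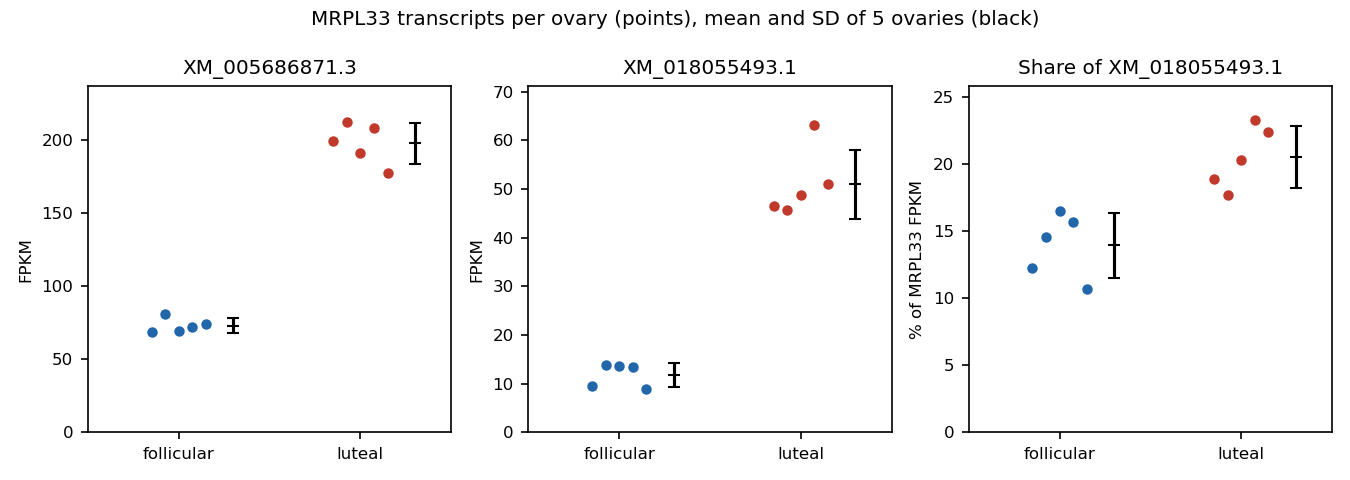
FPKM of both MRPL33 transcripts and the share of the minor transcript in the summed MRPL33 FPKM (%), per ovary (points) with the mean and SD of 5 ovaries (black). In each panel all luteal phase ovaries lie above all follicular phase ovaries.

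In the annotation MRPL33 overlaps RBKS, the ribokinase gene, which was looked at after the values had been seen. RBKS had 5.10 ± 1.13 FPKM in the luteal and 1.60 ± 0.19 FPKM in the follicular phase (SD, n = 5 each, log2 fold change 1.60, limma adjusted p = 2.36e-05). Its level was far below that of MRPL33. How the authors' counting used the strand is not given in the sources used here, and reads shared between overlapping genes were not tested.

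MRPS36 had the largest luteal change among the MRPS symbols. Despite its name it is known as a component of the 2-oxoglutarate dehydrogenase complex of the citric acid cycle. Its FPKM was 41.9, 44.3, 39.0, 50.5 and 42.9 in luteal phase ovaries 1 to 5, and 28.0, 27.6, 26.0, 30.0 and 26.5 in follicular phase ovaries 1 to 5. The phases did not overlap, and the log2 fold change was 0.66 (SE 0.08, limma adjusted p = 7.79e-05). The genes of the other components of that complex were looked up afterwards for this reason. OGDH, the catalytic dehydrogenase, had 42.9 ± 2.99 FPKM in the luteal and 23.3 ± 3.66 FPKM in the follicular phase (log2 fold change 0.89, limma adjusted p = 6.08e-05). DLD, a subunit shared with other dehydrogenase complexes, had 27.4 ± 2.61 against 20.2 ± 1.57 FPKM (0.44, limma adjusted p = 0.00163). DLST, the succinyltransferase, was not called, with 22.5 ± 0.85 against 20.7 ± 1.05 FPKM (0.12, limma adjusted p = 0.134), but it was called higher in the luteal phase at a common median (0.20, limma adjusted p = 0.0299) and on the TPM scale (0.22, limma adjusted p = 0.0454).

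MRPS15, whose bacterial counterpart binds early in the assembly of the small subunit, was also higher in the luteal phase. It had 57.4, 68.5, 46.4, 65.3 and 57.8 FPKM in luteal phase ovaries 1 to 5 and 45.9, 50.9, 37.3, 44.7 and 42.9 FPKM in follicular phase ovaries 1 to 5. Luteal phase ovary 3 lay within the follicular range. The log2 fold change was 0.41 (SE 0.11, limma adjusted p = 0.0127).

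MRPS12, the counterpart of the bacterial protein at the decoding centre, had 14.4, 15.5, 13.2, 14.9 and 13.1 FPKM in luteal phase ovaries 1 to 5. In follicular phase ovaries 1 to 5 it had 12.0, 9.85, 9.89, 12.4 and 11.5 FPKM. The phases lay close but did not overlap (log2 fold change 0.36, SE 0.09, limma adjusted p = 0.00830). None of the 4 tested transcripts of MRPS12, of 6 in the table, was called on its own.

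MRPL1, the counterpart of the protein of the bacterial L1 stalk, had 14.0 ± 1.45 FPKM in the luteal and 11.8 ± 0.55 FPKM in the follicular phase (SD, n = 5 each, log2 fold change 0.25, limma adjusted p = 0.0300). The phases overlapped. The call was lost without follicular ovary 1, 3 or 5 and without luteal ovary 2, 4 or 5, with an adjusted p of up to 0.0675.

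MRPS6 had the largest change in the follicular direction. This counterpart of a bacterial small-subunit protein had 23.3, 21.2, 18.9, 19.4 and 20.8 FPKM in luteal phase ovaries 1 to 5, and 33.9, 36.1, 28.4, 31.8 and 34.3 FPKM in follicular phase ovaries 1 to 5. The phases did not overlap (log2 fold change -0.66, SE 0.08, limma adjusted p = 1.26e-04). In the annotation MRPS6 overlaps SLC5A3, the gene of a myo-inositol transporter, which moved the same way. SLC5A3, looked at after the values had been seen, had 8.60 ± 0.74 FPKM in the luteal and 15.4 ± 1.47 FPKM in the follicular phase (-0.84, limma adjusted p = 4.43e-05), and reads shared by both genes were not tested.

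MRPL9, of bacterial descent in the large subunit, followed. Its FPKM was 41.6, 41.1, 42.1, 39.3 and 38.5 in luteal phase ovaries 1 to 5 and 55.3, 51.7, 60.1, 60.9 and 65.0 in follicular phase ovaries 1 to 5. Again the phases did not overlap (log2 fold change -0.53, SE 0.07, limma adjusted p = 1.94e-04). Both of its transcripts were called, with log2 fold changes of -0.48 (limma adjusted p = 8.21e-04) and -0.79 (limma adjusted p = 0.0143). The overlapping OAZ3 was at or near 0 in every ovary.

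MRPL10 forms the base of the stalk to which translation factors bind. It had 17.9, 19.3, 16.9, 14.7 and 12.7 FPKM in luteal phase ovaries 1 to 5 and 24.6, 23.1, 21.3, 20.2 and 23.7 FPKM in follicular phase ovaries 1 to 5, with no overlap (log2 fold change -0.48, SE 0.11, limma adjusted p = 0.00563). The stalk protein MRPL12, which MRPL10 carries, was not called (29.9 ± 3.59 against 32.3 ± 3.71 FPKM, log2 fold change -0.11). MRPL11, at the same site, was not called either (37.2 ± 10.5 against 37.5 ± 4.10 FPKM, -0.05, 95% interval -0.41 to 0.32).

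The large-subunit proteins MRPL37 and MRPL50 have no bacterial counterpart. MRPL37 had 20.3, 22.9, 17.2, 20.6 and 19.3 FPKM in luteal phase ovaries 1 to 5 and 29.5, 28.2, 22.2, 27.5 and 26.7 FPKM in follicular phase ovaries 1 to 5. Only follicular ovary 3 lay within the luteal range (log2 fold change -0.42, SE 0.10, limma adjusted p = 0.00498). MRPL50 had 23.8, 27.6, 24.8, 24.3 and 20.8 FPKM against 28.8, 35.5, 30.1, 34.1 and 33.0 FPKM, with no overlap (-0.41, SE 0.09, limma adjusted p = 0.00305).

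Both members listed for the transfer or hydrolysis of peptidyl-tRNA were higher in the follicular phase (27.8% of all tested genes were called in this direction), but at a common median and on the TPM scale only MRPL3 was called. MRPL3, the counterpart of a bacterial protein that reaches towards the catalytic site, had 52.6, 52.9, 50.0, 49.2 and 42.1 FPKM in luteal phase ovaries 1 to 5 and 58.7, 54.8, 68.7, 71.5 and 75.1 FPKM in follicular phase ovaries 1 to 5. The phases did not overlap (log2 fold change -0.41, SE 0.10, limma adjusted p = 0.00712). In the annotation MRPL3 overlaps the pseudogene LOC102175443, and reads shared by both were not tested. MRPL58, a peptidyl-tRNA hydrolase that frees stalled ribosomes, had 26.2 ± 2.09 against 31.2 ± 1.61 FPKM (-0.26, SE 0.07, limma adjusted p = 0.0128), and luteal ovary 2 lay within the follicular range.

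**Figure D4:**
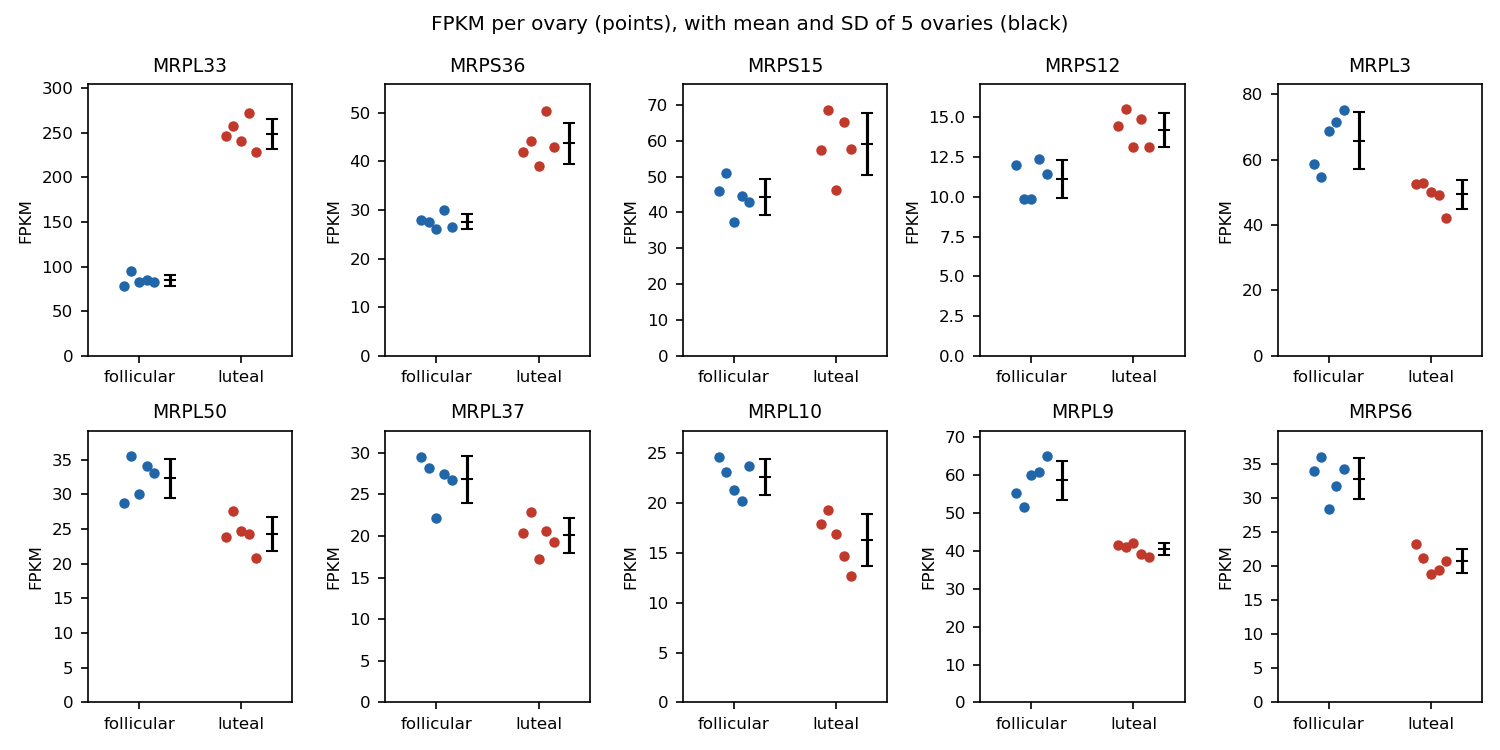
FPKM per ovary (points, blue follicular and red luteal) with the mean and SD of 5 ovaries (black) for the 10 genes called in the same direction under all 4 scalings and without any single ovary; every axis starts at 0. MRPL33 rose from 84.8 to 249 FPKM on average, and the other 9 differed by less.

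Of the 5 members at the peptide exit tunnel, 2 were called, both higher in the follicular phase (43.7% of all tested genes were called, 27.8% in this direction). MRPL45, which faces the inner membrane at the tunnel exit, had 20.8 ± 1.54 FPKM in the luteal and 25.7 ± 1.88 FPKM in the follicular phase, with no overlap (log2 fold change -0.30, SE 0.08, limma adjusted p = 0.00741). MRPL23, at the same exit, had 69.3 ± 6.24 against 83.5 ± 10.5 FPKM (-0.26, limma adjusted p = 0.0432), and its call held in 2 of 10 fits that each left out 1 ovary, those without follicular ovary 3 or luteal ovary 2. MRPL22 (-0.16), MRPL24 (0.15) and MRPL44 (-0.08) were not called. On the TPM scale the only call of the 5 was MRPL24, higher in the luteal phase (0.25, limma adjusted p = 0.0407), and at a common median none of the 5 was called. Luteal ovary 1 stood apart for MRPL44, at 9.09 FPKM against 14.0 to 14.4 FPKM in the other luteal phase ovaries.

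The other 4 calls in the follicular direction were MRPS2, MRPS26, MRPL36 and MRPL21. MRPS2, of bacterial descent, had 7.79 ± 0.89 against 10.1 ± 1.81 FPKM (log2 fold change -0.36, limma adjusted p = 0.0360), and its call was lost without follicular ovary 1 or 2 or any of luteal ovaries 1 to 4. The mitochondria-specific MRPS26 had 28.6 ± 3.75 against 34.3 ± 1.83 FPKM (-0.27, limma adjusted p = 0.0304), and its call was lost without follicular ovary 2, 4 or 5 or luteal ovary 1, 3 or 5. MRPL36 and MRPL21, both of bacterial descent, are named here to complete the calls, after their values had been seen. MRPL36 had 12.9 ± 1.64 against 16.5 ± 1.68 FPKM (-0.35, limma adjusted p = 0.0181). MRPL21 had 13.0 ± 1.94 against 16.1 ± 1.15 FPKM (-0.31, limma adjusted p = 0.0277), and its call was lost without follicular ovary 2 or 4 or luteal ovary 1, 4 or 5. Under the common median and the TPM scale none of these 4, nor MRPL45 or MRPL23, was called, and all kept a negative log2 fold change. MRPS2 and MRPL21 were not called after quantile normalization either.

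Members of several functional sites were not called. None of the 4 listed for the central protuberance was called (43.7% of all tested genes were): MRPL18 (log2 fold change 0.17), MRPL38 (-0.01), MRPL40 (-0.20) and MRPL46 (0.07). At the small subunit, MRPS5, which lies at the mRNA channel, had 28.8 ± 3.62 against 28.0 ± 4.52 FPKM (0.04). MRPS7 (0.18) and MRPS16 (0.12), counterparts of bacterial assembly proteins listed with MRPS15, were not called, and follicular ovary 2 stood apart for MRPS7 at 16.4 FPKM. On the TPM scale both were called higher in the luteal phase, with 0.28 (limma adjusted p = 0.0399) and 0.22 (limma adjusted p = 0.0216).

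The paralogues MRPS18A, MRPS18B and MRPS18C derive from 1 bacterial protein and occupy different places in the ribosome. None was called, with log2 fold changes of 0.16 (95% interval -0.06 to 0.39), 0.00 (-0.22 to 0.22) and 0.09 (-0.06 to 0.25). MRPS30, which lies in the large subunit in spite of its symbol, had 14.0 ± 2.11 against 16.1 ± 2.49 FPKM (-0.20, limma adjusted p = 0.240) and was not called. An unadjusted p under 0.05 was reached by 21 of the 77 genes (27.3%), and by 52.2% of all tested genes. MRPL16, MRPL19 and MRPS34, named here after their values had been seen, were the 3 of these that missed the call, with limma adjusted p of 0.0526, 0.0608 and 0.0578. MRPL16 was called higher in the luteal phase at a common median and on the TPM scale, MRPL19 likewise on the TPM scale, and MRPS34 was called higher in the follicular phase after quantile normalization.

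Among the most abundant members without a call, MRPL17 was the most variable. Its FPKM was 161, 149, 90.4, 95.3 and 92.0 in luteal phase ovaries 1 to 5 and 111, 137, 67.2, 83.2 and 104 in follicular phase ovaries 1 to 5. The phases overlapped over most of their range (log2 fold change 0.22, 95% interval -0.26 to 0.70). MRPL57 had 72.4 ± 10.6 against 84.5 ± 7.45 FPKM (-0.23, limma adjusted p = 0.101), but it was called higher in the follicular phase after quantile normalization (-0.33, limma adjusted p = 0.0112). Among the least abundant, MRPS31 had 7.20 ± 0.86 against 6.30 ± 0.28 FPKM (0.18, limma adjusted p = 0.133), but it was called higher in the luteal phase under the common median and after quantile normalization, with 0.27 each.

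By symbol, 12 of 49 MRPL genes were called (2 higher in the luteal and 10 in the follicular phase) and 6 of 28 MRPS genes (3 and 3). These are 24.5% and 21.4% of their tested genes, both below the 43.7% called over all tested genes (15.9% higher in the luteal and 27.8% in the follicular phase). Median log2 fold changes were -0.08 and 0.05. Of 46 members listed with a bacterial counterpart 12 were called (4 and 8, median 0.02). Of the other 31, 6 were called (1 and 5, median -0.12). Their only luteal call was MRPS36, named above as a component of the 2-oxoglutarate dehydrogenase complex. The 31 hold MRPL47, although it too has a bacterial counterpart. MRPL47 was not called under any of the 4 scalings. The splits by symbol and by counterpart also turned with the scaling. On the TPM scale (18.8% and 17.0% of all tested genes) they were 6 to 5 for MRPL and 7 to 1 for MRPS. They were 11 to 4 for members listed with a bacterial counterpart and 2 to 2 for the other 31. After quantile normalization (17.5% and 24.4% of all tested genes) the splits were 2 to 10, 4 to 3, 4 to 6 and 2 to 7. At a common median (18.9% and 19.9% of all) they were 3 to 5, 4 to 1, 5 to 4 and 2 to 2. No test of the difference between these groups was made.

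The ratio of a member to the median member of the same ovary depends on the ovary's scaling factor only through the added 0.1 FPKM. On the log2 scale of FPKM + 0.1 this ratio averaged 3.30 for MRPL33 in the luteal and 1.68 in the follicular phase. The phases did not overlap in this ratio for 9 of the 77 genes (11.7%), where they did not overlap for 23.0% of all tested genes set against the same median. It was higher in the luteal phase for 6 of them (MRPL33, MRPS36, MRPS15, MRPS12, MRPL1 and MRPS10) and higher in the follicular phase for 3 (MRPS6, MRPL9 and MRPL37). MRPS10, named here after its values had been seen, was the only one of the 9 without a call in FPKM (log2 fold change 0.16, limma adjusted p = 0.140), and it was called on the TPM scale (0.26, limma adjusted p = 0.0262).

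The 77 genes have 130 transcripts in the table, 51 genes having 1 and 26 having several, up to 8. In the fit across all transcripts 124 could be tested and 13 were called (5 higher in the luteal and 8 in the follicular phase), where 17.3% of all 32842 tested transcripts were called. At a common median 8 member transcripts were called, and leaving out 1 ovary gave 10 to 16. The shares of all transcripts in these fits are not given here. Of the 73 tested transcripts of genes with several, 6 were called as deposited, from 4 genes: MRPL33 and MRPL9 with both transcripts, and MRPL45 and MRPL38 with 1 each. For MRPL45 it was the leading transcript (log2 fold change -0.29, limma adjusted p = 0.0248). For MRPL38, uncalled as a gene, it was the minor transcript XM_018063786.1, at 0.465 to 0.744 FPKM in the luteal phase and at 0.016 to 0.064 FPKM in 4 follicular phase ovaries, with 0.627 FPKM in the remaining ovary (log2 fold change 1.87, limma adjusted p = 0.0232).

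Proteins of the mitochondrial ribosome that do not carry an MRPL or MRPS symbol were read beside these genes. OXA1L, which is not one of its subunits, was listed with them. Of the 6 measured, 2 were called (33.3%, against 43.7% of all tested genes), both higher in the follicular phase. GADD45GIP1, a large-subunit protein also called CRIF1, had 14.3 ± 1.21 FPKM in the luteal and 21.7 ± 1.10 FPKM in the follicular phase (log2 fold change -0.60, limma adjusted p = 1.22e-04). PTCD3, of the small subunit, had 17.7 ± 1.25 against 21.7 ± 3.16 FPKM (-0.28, limma adjusted p = 0.0429), a call that was lost under the other 3 scalings and without any single ovary except follicular ovary 5 or luteal ovary 1. DAP3 (0.11), CHCHD1 (-0.07), AURKAIP1 (-0.12) and OXA1L (0.27), the last an insertase that receives the new peptides at the inner membrane, were not called.

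Of 27 factors that assemble the mitochondrial ribosome or modify its RNA, 8 were called (29.6%, against 43.7% of all tested genes), 3 higher in the luteal and 5 in the follicular phase. The split was 3 to 2 with a common median, 3 to 3 with quantile normalization and 4 to 1 on the TPM scale. Over all tested genes the luteal and follicular shares in these fits were 18.9% and 19.9%, 17.5% and 24.4%, and 18.8% and 17.0%. Without follicular ovary 5 the count of assembly factors was 5. MPV17L2, an assembly factor of the inner membrane, had 13.7 ± 2.42 FPKM in the luteal and 6.31 ± 1.47 FPKM in the follicular phase (log2 fold change 1.12, limma adjusted p = 4.00e-04). RPUSD4, a pseudouridine synthase of the large ribosomal RNA, had 4.22 ± 0.38 against 6.34 ± 0.48 FPKM (-0.58, limma adjusted p = 8.13e-04).

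Of 13 translation factors and partners 1 was called (7.69%, against 43.7% of all tested genes). TSFM, the exchange factor of the elongation factor TUFM, had 19.7 ± 2.91 FPKM in the luteal and 13.6 ± 1.28 FPKM in the follicular phase (log2 fold change 0.53, limma adjusted p = 0.00280). TUFM itself was not called (33.9 ± 4.16 against 37.9 ± 4.87 FPKM, -0.16). The count was 3 without follicular ovary 2 and 2 without luteal ovary 3. On the TPM scale it was 3, all higher in the luteal phase (18.8% of all tested genes were called in this direction). At a common median and with quantile normalization it was 1.

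Of 17 mitochondrial tRNA synthetases 6 were called (35.3%, against 43.7% of all tested genes), 3 in each direction, and MARS2 for methionine (log2 fold change 0.53, limma adjusted p = 0.00212) and AARS2 for alanine (-0.47, limma adjusted p = 0.0294, a call lost on the TPM scale) moved most. The split was 4 to 1 with a common median, 4 to 2 with quantile normalization and 4 to 0 on the TPM scale. Over all tested genes, 15.9% were called higher in the luteal and 27.8% in the follicular phase as deposited. These shares were 18.9% and 19.9% at a common median, 17.5% and 24.4% with quantile normalization, and 18.8% and 17.0% on the TPM scale. Of 12 genes that copy or transcribe mitochondrial DNA or process its RNA 4 were called (33.3%, against the same 43.7%). MTERF2 was higher in the luteal phase (0.44, limma adjusted p = 0.0286), and of the 3 higher in the follicular phase TFAM, which packages mitochondrial DNA, moved most (-0.35, limma adjusted p = 0.00889), a call lost at a common median. The split of 1 to 3 became 2 to 0 with a common median, 3 to 1 with quantile normalization and 2 to 1 on the TPM scale. The count was 1 without follicular ovary 3 or luteal ovary 4 or 5, and 2 without luteal ovary 3.

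Nuclear-encoded OXPHOS subunits were read beside them. The 23 tested, of 35 listed, belong to complexes I, II and V, and the 12 listed symbols of complexes III and IV were not analysed here. Complexes I and V also contain proteins that this ribosome makes, while complex II does not. Of the 23, 11 (47.8%) were called, near the 43.7% of all tested genes. All 11 were higher in the luteal phase, a direction called for 15.9% of all tested genes, and the median log2 fold change over the 23 was 0.23. Without complex II, 8 of 19 were called, 6 of 11 in complex I and 2 of 8 in complex V. In complex II 3 of 4 were called, where 43.7% of all tested genes were. SDHA, the flavoprotein of complex II, moved most, with 99.2 ± 8.29 FPKM in the luteal and 56.2 ± 4.51 FPKM in the follicular phase (0.82, limma adjusted p = 2.01e-05). The calls were 15 to 0 at a common median and 16 to 0 on the TPM scale, but 11 to 2 after quantile normalization. In these fits 18.9%, 18.8% and 17.5% of all tested genes were called higher in the luteal phase. The mRNAs that mitochondrial DNA encodes were not analysed here.

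The cytosolic ribosomal proteins, which build the ribosomes of the cytosol, are read beside the mitochondrial ones as a description. Of 79 tested, 72 were called (91.1%, against 43.7% of all tested genes) and all were higher in the follicular phase (27.8% of all), with a median log2 fold change of -0.49, against 5 higher in the luteal and 13 in the follicular phase of the 77 mitochondrial ones and a median of -0.05. The cytosolic calls were 41 with a common median (19.9% of all tested genes were called in this direction), 44 with quantile normalization (24.4% of all) and 69 on the TPM scale (17.0% of all), all higher in the follicular phase. Their median log2 fold change was -0.23 after quantile normalization. Their median FPKM per ovary lay between 1043 and 1467 in the luteal and between 1684 and 2093 in the follicular phase, without overlap, while the median mitochondrial ribosomal protein gene lay between 23.6 and 26.8 FPKM and between 24.0 and 27.6 FPKM. No test of the difference between both families was made.

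**Figure D5:**
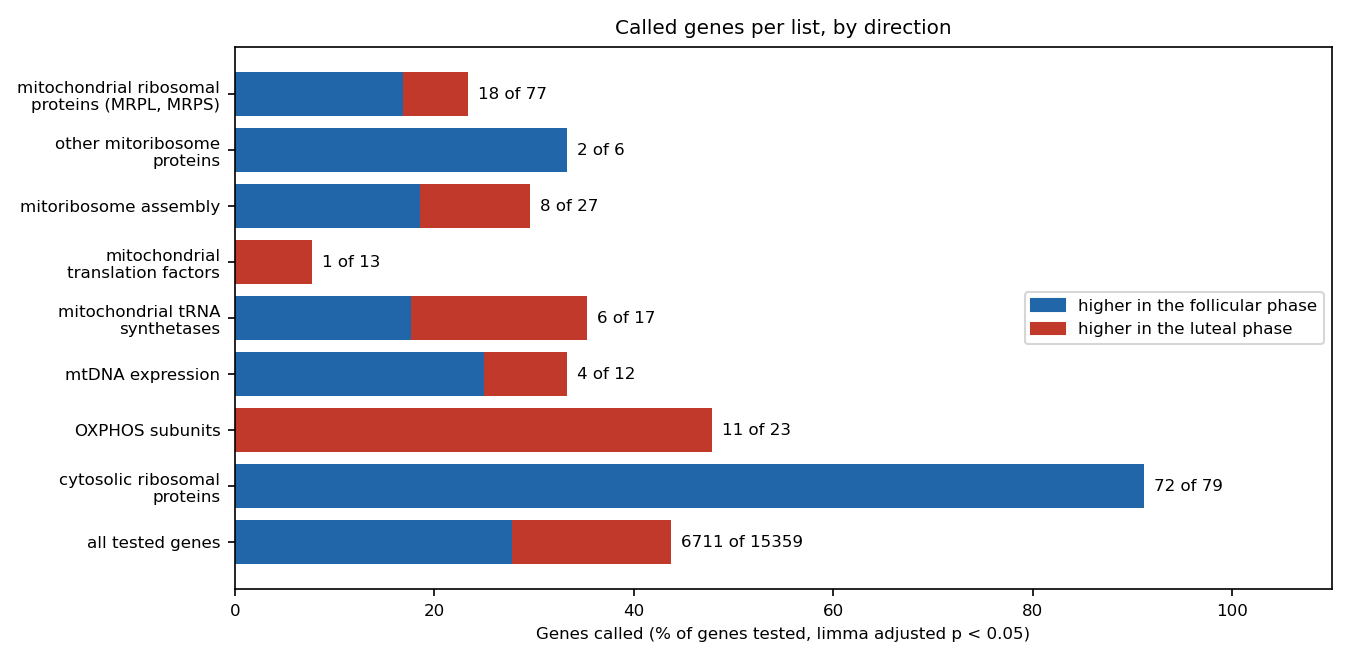
Share of the tested genes of each list called by limma (adjusted p under 0.05, FPKM as deposited) as higher in the follicular (blue) or luteal phase (red), with the number called beside each bar. Of the mitochondrial ribosomal protein genes 18 of 77 were called, against 6711 of all 15359 genes, 11 of 23 OXPHOS subunits and 72 of 79 cytosolic ribosomal proteins.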

How the data were processed

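Total RNA of each ovary was sequenced after depletion of ribosomal RNA. HISAT2 served the authors for alignment, StringTie for assembly and Cuffdiff for the deposited FPKM, 1 value per transcript and ovary with no pooling. The build of the files is not given in the sources used here, so no coordinates are given. Which genes overlap was read by name from RefSeq's annotation of assembly ARS1.2, which matched all 77 gene IDs.

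FPKM of protein-coding transcripts was summed by symbol. Genes that reached 0.1 FPKM in 5 or more of the 10 ovaries were tested on log2(FPKM + 0.1) with limma 3.58.1 in R 4.3.3 (eBayes with trend), luteal minus follicular, two-sided, without a block. Such fold changes understate those of low genes. Benjamini-Hochberg adjustment ran over every gene tested, or every transcript tested. The script was tested on simulated data. Tables and plots were made in Python 3.11.15 (pandas 2.3.3, numpy 2.4.6, matplotlib 3.10.9).

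The members and gene lists were chosen with earlier results of these data known. Genes were named where they were the 4 called members with the largest change per symbol letter and direction, the 3 members with the highest or lowest level, members of a listed functional site, or, in other lists, the called gene with the largest change per direction or any gene of a list of under 8. The grouping into members listed with a bacterial counterpart and the others, and OGDH, DLD, DLST, RBKS, SLC5A3 and OAZ3, were added after the values had been seen. The alternatives comprised a pseudocount of 1 or 0.01, a minimum FPKM of 0.5 or none, a common median, quantile normalization, the TPM scale, eBayes without trend, a replicate block, a threshold of 0.01 and leaving out each ovary.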

Additional observations from a re-analysis of the deposited data

Results flagged for a closer look

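In 4 of 98 groups of 5 ovaries, taken over the named genes of each phase, the highest or lowest ovary stood apart by Dixon's test, where chance gives about 1 in 20. MRPL44 was at 9.09 FPKM in luteal ovary 1 and between 14.0 and 14.4 FPKM in the other luteal ovaries. MRPS2 was at 9.36 FPKM in luteal ovary 5, against 7.24 to 7.56 FPKM. MRPS7 was at 16.4 FPKM in follicular ovary 2, against 11.1 to 12.7 FPKM, and the assembly factor RPUSD4 was at 3.56 FPKM in luteal ovary 3, against 4.28 to 4.46 FPKM. Over all members, 7 of 154 such groups held an ovary that stood apart.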

How the results depend on the processing

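Under pseudocounts of 1 and 0.01 and a minimum FPKM of 0.5, all 49 named genes stayed on their side of the threshold. Over these and the other alternatives that kept the threshold of 0.05, 856 of 931 comparisons with the reported call did so, 66 calls were lost, 9 were gained and none turned direction. Only the 26 of these 49 genes that were called as reported could lose a call, so all 66 losses fall on them. At an adjusted p under 0.01, 10 members were called (13.0%, against 26.2% of all tested genes), 3 higher in the luteal (10.8% of all) and 7 in the follicular phase (15.4% of all), and the other lists gave 1 (other proteins of the ribosome), 3 (assembly), 2 (tRNA synthetases), 1 (mitochondrial DNA) and 6 (OXPHOS) calls and 5 member transcripts. On the TPM scale 13 members were higher in the luteal and 6 in the follicular phase, with 1 other ribosome protein, 5 assembly factors and 3 translation factors called. At a common median 6 members were higher in the follicular phase, with 1 other ribosome protein, 5 assembly factors, 2 mitochondrial DNA genes, 41 cytosolic ribosomal proteins and 8 member transcripts called. Quantile normalization gave 1 other ribosome protein and 44 cytosolic ribosomal proteins, and no filter and eBayes without trend gave 1 other ribosome protein each. The causes were not tested.

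Leaving out each ovary in turn gave 14 to 18 called members, 4 to 9 of them higher in the luteal and 9 to 13 higher in the follicular phase (in the same fits 35.7% to 45.6%, 13.9% to 16.3% and 21.9% to 29.4% of all tested genes), and a median log2 fold change of -0.09 to -0.00. The lists gave 1 to 2 (other ribosome proteins), 5 to 9 (assembly), 1 to 3 (translation factors), 4 to 6 (tRNA synthetases), 1 to 5 (mitochondrial DNA), 8 to 15 (OXPHOS) and 59 to 70 (cytosolic ribosomal proteins) calls, and 10 to 16 member transcripts.

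The replicate block gave 22 called members, 9 higher in the luteal and 13 in the follicular phase (45.7%, 16.5% and 29.2% of all tested genes), and 2 translation factors. Correlations of the deviations of same-numbered ovaries ran from 0.03 to 0.20, and 3 of 5 numbers correlated best with their own. The labels do not state that same-numbered ovaries are tied, so the main fit used no block. Whether they are pairs was not tested. Depth per ovary is unknown, which leaves the spread between ovaries as the measure of precision.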
